A study of Camelus dromedarius with 4 samples.

Results

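Heat shock proteins and their DNAJ co-chaperones were examined in the supraoptic nucleus of the dromedary camel, the hypothalamic nucleus whose magnocellular neurones make vasopressin and oxytocin. The members were the gene symbols of the deposited season table that begin with HSPA, HSPB, HSPD, HSPE, HSPH, HSP90 or DNAJ and that carry a mean in both seasons. Of 76 symbols with such a prefix, 68 had both means, out of 16053 symbols in the whole table. No season mean was listed for DNAJB3, DNAJB8, DNAJC15, DNAJC5B, DNAJC5G, DNAJC8, HSPA1L and HSPB7.

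RNA from 2 winter and 2 summer camels was sequenced to ask how gene expression in this nucleus differs between the seasons. The camels were age-matched adult males of the Tergui breed, all hydrated, slaughtered for meat in January at El Oued and in June at Ouargla in Algeria. Season, place and day of slaughter therefore cannot be told apart, and each library is taken here as 1 animal. Among the animals whose peptides were measured, the study marked the winter sample numbered 3 as wrongly isolated, and the sources used here do not state whether the winter RNA library numbered 3 is the same animal.

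Heat shock proteins hold, fold, refold or pass on for degradation proteins that have not reached or have lost their shape. HSP70 chaperones bind unfolded stretches in a cycle driven by ATP, DNAJ proteins bring them the client and start ATP hydrolysis through the J domain, and exchange factors such as the HSP110 proteins release it, while HSP90 acts later on kinases and steroid receptors. Some members are always made, others are switched on by heat shock factors when proteins unfold in the cytosol, and further ones sit in the endoplasmic reticulum, where secretory neurones fold their hormone precursors and where the unfolded protein response sets chaperone supply.

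The season table gives, per symbol, the authors' mean of read counts divided by DESeq size factors, the scaling that makes libraries of unequal depth comparable. Each mean is a sum of whole reads from 2 libraries, and the reads of each library could be solved for. A single solution existed in both seasons for 9897 symbols and for 29 members, and in summer for 55 members, mostly those with low means. The solved libraries do not name their replicate and are called here by size factor, 1.33 (larger) and 0.946 (smaller) in winter, 0.922 (larger) and 0.877 (smaller) in summer. Values below are normalised reads, that is reads divided by size factor, and they compare a gene between libraries but not 2 genes with each other, since they are not scaled to gene length. On gene models, 4379162 to 6902037 reads were counted per library. The summer libraries stood further apart than the winter libraries: of the symbols with single solutions, 18.6% differed more than 3-fold between the summer libraries and 4.21% between the winter libraries. Of the magnocellular markers, 4 were listed in both seasons and they did not move together: oxytocin (OXT) had means of 592 in summer and 621 in winter, SCG2 554 and 1195, PCSK1 69.1 and 32.9, and POU3F2 45.4 and 44.5. The neuronal markers that were listed, SNAP25, SYT1 and RBFOX3, summed to 240.0 in summer and 419 in winter, and to 131 and 349 in the summer libraries of larger and smaller size factor. None of these 3 was at 0, and in a piece of tissue fewer neurones and less RNA per neurone cannot be told apart.

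Of the 68 members, 63 reached a mean of 10 in winter or summer, the minimum the study set. The other 5 were DNAJB2, DNAJC18, HSP90AB3P, HSPB3 and HSPB9, with means of 7.84 or less. Nearest to that minimum from above lay DNAJC30, with 15.0 in winter and 11.3 in summer, and nearest from below HSP90AB3P, with 6.42 and 7.84. The means of the 63 ranged from a winter value of 7.63 for DNAJC22 to 7907 for HSP90AA1, the stress-inducible cytosolic HSP90.

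The members as a whole differed little between the seasons. Among them, HSPBP1 and HSPBAP1 carry the prefix but were not classed as chaperones of the family. The summer mean was higher for 36 of the 63 members and the winter mean for 27, where 53.8% of all 13811 symbols had the higher mean in summer and 46.2% in winter. The median log2 ratio, winter over summer with 1 added to each mean, was -0.07 for the members and -0.04 for all symbols. Season means were more than 1.5-fold apart for 6 members, which is 9.52% of them, against 21.4% of all symbols. A higher winter mean of this size was listed for 1 member (DNAJC7), beside 9.75% of all symbols, and a higher summer mean for 5 (DNAJC22, HSPA6, DNAJB9, HSPA1A and HSPB8), beside 11.7%. A difference above 2-fold was listed for 1 member, DNAJC22, beside 6.42% of all symbols. In these shares members and all symbols were not matched for the height of their means. Summed over the 63 members, the season means came to 34262 in summer and 36380 in winter, a ratio of 1.06. Members with high means weigh most in this sum, HSP90AA1 above all, with 6398 in summer and 7907 in winter.

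**Figure D1:**
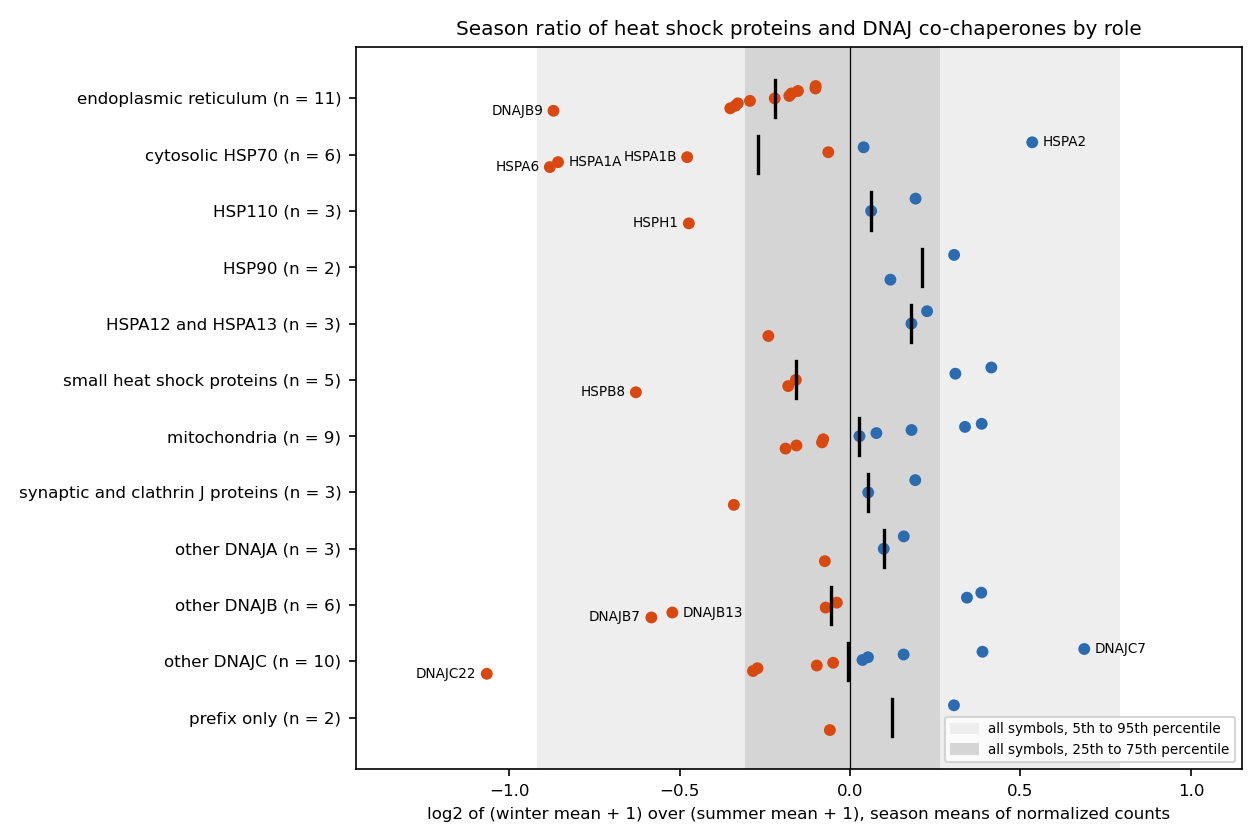
Season ratio of each of the 63 members, as log2 of the winter mean plus 1 over the summer mean plus 1, grouped by role (blue, winter mean higher; orange, summer mean higher; black bar, median of the group; grey bands, the 25th to 75th and the 5th to 95th percentile of all 13811 symbols). All 11 members placed in the endoplasmic reticulum lie on the summer side, and only DNAJC22 lies outside the band of all symbols.

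No member passed a test of the season difference. The solved reads of 7655 symbols, 24 of them members, were tested with edgeR's quasi-likelihood method after the same minimum. An unadjusted p under 0.05 was given to 152 symbols (1.99% of all) and to 0 members, and the study's rule, which asks also for a difference above 2-fold, was met by 128 symbols (1.67%) and by 0 members. After Benjamini-Hochberg adjustment 0 symbols of the table passed 0.05 (0.0%), 0 of them members, with the quasi-likelihood test, and 1 symbol, no member, with edgeR's exact test and with DESeq2 alike. The lowest unadjusted p of a member was 0.117, for HSPA6, and the lowest adjusted p was 0.981. The biological coefficient of variation of this fit was 0.459, and with 2 animals a season an exact two-sided permutation test cannot go below 0.333. The seasons did not overlap between libraries in 7 of the 24 members, where 30.5% of all symbols did so, and in all 7 the summer libraries were the higher, beside 17.2% of all symbols (winter higher, 0 members and 13.3%). The 7 were HSPA1A, HSPA6, DNAJB9, DNAJB11, DNAJC1, DNAJB13 and DNAJC22. The spread within a season was larger than the difference between the season means in 22 of the 24 members (91.7%) and in 80.8% of all symbols.

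**Figure D2:**
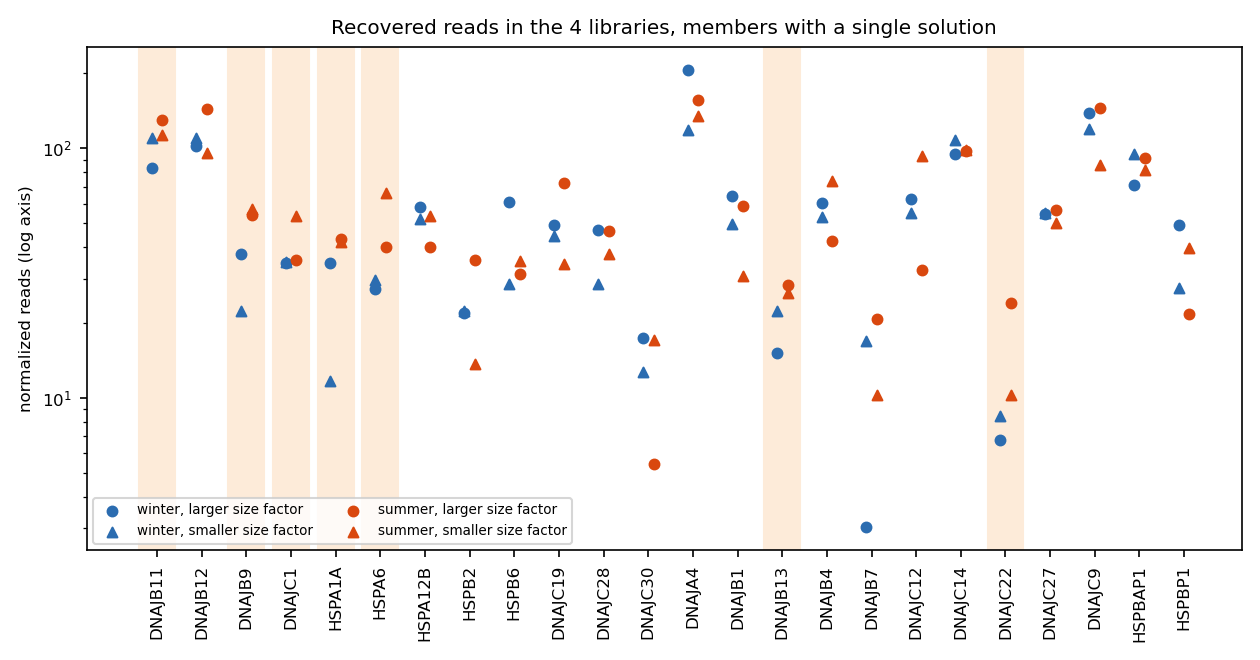
Normalised reads (log axis) of the 24 tested members in the 4 libraries (blue, winter; orange, summer; circles, larger size factor; triangles, smaller size factor), ordered by role. Shading marks the 7 members in which both summer libraries lie above both winter libraries. In DNAJC1 the gap is narrow, from 34.9 to 35.8.

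The stress-inducible cytosolic HSP70 genes HSPA1A, HSPA1B and HSPA6 were listed higher in summer, and the constitutive HSPA8 was level. The inducible genes may share reads, so their values may not be independent of each other. HSPA1A, the classic heat-induced HSP70, had 34.7 and 11.6 normalised reads in winter (larger and smaller size factor) and 43.4 and 42.2 in summer. The summer libraries were alike and lay above both winter libraries, which themselves differed 2.98-fold. For HSPA1A the log2 fold change, winter over summer, was -0.83 ± 0.63 (SE, n = 2 a season, unadjusted p = 0.227 and adjusted p = 0.981 by edgeR's quasi-likelihood test). It became -1.87 without the winter library of the larger size factor and -0.30 without the smaller one. HSPA6, a family member made almost only under stress, had 27.2 and 29.6 in winter and 40.1 and 66.1 in summer. Here the winter libraries were alike and the summer libraries apart. For HSPA6 the log2 fold change was -0.90 ± 0.51 (unadjusted p = 0.117, edgeR's quasi-likelihood test), and it was -0.50 without the summer library of the smaller size factor.

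HSPA1B, the sister copy of HSPA1A, had an authors' mean of 1541 in summer and 1106 in winter, 1.39-fold higher in summer. Its mean is too high for a single solution, so its spread between animals is unknown. HSPA1A and HSPA1B are near-identical in mammals and their reads may be split between them by the counting. Summed over both, the means were 1583 in summer and 1129 in winter, a ratio of 1.40. HSPA8, the constitutive partner that does the daily work of folding and of stripping clathrin from vesicles, had a mean of 4589 in summer and 4718 in winter. HSPA2, abundant in testis and also made in brain, went the other way, with 1261 in summer and 1827 in winter, 1.45-fold higher in winter. HSPA14, which sits on the ribosome with DNAJC2, had 314 in summer and 301 in winter, and DNAJC2 itself had 391 and 321. Over the 6 cytosolic HSP70 genes the median log2 ratio was -0.27, with 4 listed higher in summer and 2 in winter.

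The HSP110 proteins, which eject ADP from HSP70, were listed on either side. HSPH1, the heat-inducible member, had 464 and 471 normalised reads in the summer libraries. Its winter mean of 337 has a pair of solutions, 323 and 350.1 or 463 and 210.5. Under either one both summer libraries lay above both winter libraries, in the second narrowly (463 against 464). The unadjusted p was 0.424 for the first and 0.481 for the second (edgeR's quasi-likelihood test), with a log2 fold change of -0.47 in each. HSPA4 had 656 in summer and 750 in winter, and HSPA4L had 639 and 667. Of the more distant relatives, HSPA13 of the microsomes had 320.3 in summer and 271 in winter. HSPA12B, known from endothelium, had 58.1 and 51.8 in winter and 40.1 and 53.6 in summer, with overlapping seasons. HSPA12A, which is found in brain, had means of 163 in summer and 185 in winter, and 114 and 212 in the summer libraries of larger and smaller size factor.

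Both cytosolic HSP90 genes were listed higher in winter. The mean of HSP90AA1 was 6398 in summer and 7907 in winter, a ratio of 1.24, and that of the constitutive HSP90AB1 was 2806 and 3046, a ratio of 1.09. Neither has a single solution, and neither was tested here. The inducible HSP90AA1 and the inducible HSPA1B thus stood on opposite sides.

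Among the members placed in the endoplasmic reticulum, all above the minimum ran one way. The roles were drawn up with earlier results of these data known, and the count depends on which members were placed here. DNAJC18, also placed here but below the minimum, had 4 and 1 reads in winter and 0 in both summer libraries. DNAJC14 could also have been placed here but was counted with the other DNAJC members. Its mean was 97.8 in summer and 101 in winter, the opposite side. All 11 members placed in this compartment that reached a mean of 10 had the higher mean in summer, beside 53.8% of all symbols. Their log2 ratios ran from -0.87 to -0.10, with a median of -0.22. Their means summed to 4261 in summer and 3658 in winter, 1.16-fold higher in summer. HSPA5 (BiP), the HSP70 of this compartment, had 790 in summer and 701 in winter. HSP90B1 (GRP94), its HSP90, had 1611 and 1382. DNAJC3, a co-chaperone of BiP that is induced by the unfolded protein response, had 306 and 242, and 310.1 and 302 in the summer libraries. The 2 winter solutions of DNAJC3 are 89.8 and 394, which overlap summer, and 229 and 255, which lie below it. DNAJC10, a disulphide reductase with a J domain, had 455 in summer and 371 in winter.

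DNAJB9 (ERdj4), a target of the XBP1 branch that keeps the stress sensor IRE1 at rest, showed the largest season ratio of this compartment. It had 37.7 and 22.2 normalised reads in winter and 54.2 and 57.0 in summer. The summer libraries were within 1.05-fold of each other and both lay above winter. For DNAJB9 the log2 fold change was -0.86 ± 0.49 (unadjusted p = 0.12 and adjusted p = 0.981 by edgeR's quasi-likelihood test). It was -0.56 without the winter library of the smaller size factor and -1.32 without the larger one. DNAJB11 (ERdj3), which is secreted with its clients, had 83.0 and 110.0 in winter and 130.1 and 113 in summer. Its seasons did not overlap, but the lowest summer value was only just above the highest winter value, and the log2 fold change was -0.34 ± 0.34 (unadjusted p = 0.355, edgeR's quasi-likelihood test). DNAJC1 (ERdj1), a membrane protein that binds the ribosome, had 34.7 and 34.9 in winter and 35.8 and 53.6 in summer, so that 1 summer library made the difference. The log2 fold change of DNAJC1 was -0.36, and -0.04 without the summer library of the smaller size factor. DNAJB12, a membrane J protein that works with cytosolic HSC70, had 102 and 110.0 in winter and 144 and 95.7 in summer, which overlapped.

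The count of the endoplasmic reticulum rested in part on 1 summer library. Reads of single summer libraries were solved for 9 of its members. In the library of the larger size factor all 9 lay above the authors' winter mean, beside 44.5% of all 12158 symbols so solved. In the library of the smaller size factor 6 of the 9 did, beside 51.3% of all symbols. DNAJB12, DNAJC16 and DNAJC25 were the 3 that did not, with 95.7, 109 and 267 against winter means of 106, 147 and 306. The library of the larger size factor also differed from the other in markers of several cell types. The summed markers solved in summer were lower in it for neurones (3 genes, 131 against 349), astrocytes (3 genes, 137 against 296) and ependyma (5 genes, 66.1 against 223). They were higher in it for microglia (2 genes, 224 against 122) and oligodendrocytes (1 gene, 196 against 149). They stood at 961 against 911 for the 5 genes of endothelium and pericytes. For the 2 magnocellular genes so solved they stood at 113 against 116. Of these 2, PCSK1 was higher in it (82.4 against 55.9) and POU3F2 was lower (30.4 against 60.4). The part of these markers in the result was not tested.

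Genes of the unfolded protein response that are no members were listed mostly higher in summer, but not all of them. Of 17 that reached a mean of 10, 13 had the higher mean in summer and 4 in winter, with a median log2 ratio of -0.15. Among all symbols 53.8% had the higher mean in summer. Reads of single summer libraries were solved for 10 of these genes. In the library of the larger size factor 6 of them lay above the winter mean, beside 44.5% of all symbols. In the library of the smaller size factor 5 did, beside 51.3%. The mean of XBP1, the transcription factor that raises chaperone genes of this compartment, stood in summer 1.35-fold above its winter value of 370, and that of ATF6 was 783 and 633. Among the genes of this list solved in both seasons, MANF lay wholly above winter in summer, and ERN1, which encodes IRE1, and SDF2L1 lay wholly above summer in winter. Of the 4 genes of this list that were tested, 0 had an unadjusted p under 0.05 (edgeR's quasi-likelihood test), beside 1.99% of all symbols. HYOU1, the HSP110 of the same compartment, was listed with 184 in summer and 243 in winter, against the direction of HSPA5.

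Mitochondrial chaperones did not share a direction. Of 9 members, 5 were listed higher in winter and 4 in summer, with a median log2 ratio of 0.03. HSPD1 (HSP60) and HSPE1 (HSP10), the chamber and the lid of the mitochondrial chaperonin, are neighbours in the RefSeq dromedary annotation. Both were near level between the seasons. HSPD1 had a mean of 247 in summer and 233 in winter, with 250.5 and 244 in the summer libraries. HSPE1 had 187 and 177, with 188 and 186 in the summer libraries. Each had a log2 ratio of -0.08, and the summer libraries lay within 1.03-fold of each other in both genes. HSPA9 (mortalin), the HSP70 of the matrix, had 769 in summer and 811 in winter. DNAJA3, its J protein, had 234 and 265. DNAJC19, of the import motor, had 49.0 and 44.4 in winter and 72.7 and 34.2 in summer, so the summer libraries lay on either side of winter. DNAJC30 had 17.4 and 12.7 in winter and 5.42 and 17.1 in summer.

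Small heat shock proteins, which hold unfolding proteins without ATP, were mixed and spread widely between animals. HSPB8, which works with BAG3 to send aggregates to autophagy, had a mean of 168 in summer and 108 in winter, 1.55-fold higher in summer. The summer libraries had 90.0 and 246, however, and the lower of these lay below the winter mean. Neither of the 2 winter solutions gave an unadjusted p below 0.344. HSPB1 (HSP27) had means of 304 and 268, with 248 and 360.2 in the summer libraries. HSPB6 (HSP20) had 61.1 and 28.6 in winter and 31.4 and 35.3 in summer, so that a single winter library carried its higher winter mean. HSPB2 had 21.9 and 22.2 in winter and 35.8 and 13.7 in summer, with the winter animals alike and the summer animals on either side. HSPB11, an intraflagellar transport protein despite its name, had 191 in summer and 237 in winter. HSPB3 and HSPB9 had 6 reads or fewer in every library.

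Of the 3 J proteins of synapses and clathrin coats, only DNAJC5 had a single summer solution. DNAJC5 (cysteine string protein), which keeps the synaptic SNARE protein SNAP25 folded, had means of 127 in summer and 146 in winter. Its summer libraries had 77.0 and 178 normalised reads, a difference of 2.31-fold. SNAP25 itself had 79.2 and 199 in the same libraries. Both genes were thus low in the summer library of the larger size factor. DNAJC6 (auxilin), which recruits HSC70 to uncoat clathrin vesicles, had 2514 in summer and 2609 in winter. DNAJC13, of endosomes, had 941 and 743.

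J proteins of the DNAJA and DNAJB types were listed on either side. DNAJB1 (HSP40), the main heat-inducible J protein, had 64.1 and 49.7 normalised reads in winter and 58.6 and 30.8 in summer. The seasons overlapped and the mean was higher in winter, the opposite side to HSPA1A. For DNAJB1 the log2 fold change was 0.35 ± 0.48 (unadjusted p = 0.486, edgeR's quasi-likelihood test). DNAJA1 and DNAJA2, J proteins that work with HSC70, had 351 and 380.0 in summer and 333 and 407 in winter. DNAJB6, a suppressor of aggregation, had 292 and 278. DNAJB4 had 60.4 and 52.9 in winter and 42.3 and 74.1 in summer, with a log2 fold change of -0.03 whose sign changed with the scaling. For DNAJB2, known from neurones, winter gave 7 and 2 reads and summer 5 and 6, too few to compare. Of the others of these types, DNAJB5 had means of 109 in summer and 143 in winter. DNAJB7 had 3.02 and 16.9 normalised reads in winter and 20.6 and 10.3 in summer, which overlapped.

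DNAJC7 (TPR2), which passes clients between HSP70 and HSP90, had the largest ratio on the winter side. Its mean was 2234 in winter and 1387 in summer, 1.61-fold higher in winter, and its reads could not be solved. DNAJC22 had the largest ratio on the summer side. It had 6.79 and 8.46 normalised reads in winter and 23.9 and 10.3 in summer, with 1 summer library 2.33-fold above the other. For DNAJC22 the log2 fold change was -1.18 ± 0.85 (unadjusted p = 0.204, edgeR's quasi-likelihood test), and -0.44 without the summer library of the larger size factor. DNAJB13, a J protein of sperm tails and cilia, had 15.1 and 22.2 in winter and 28.2 and 26.2 in summer. The table lists DNAJC27, a small GTPase with a J domain, under separate symbols. DNAJC27 had 54.3 and 55.0 in winter and 56.4 and 50.2 in summer, and DNAJC27-B had means of 174 in winter and 133 in summer. DNAJC14 was as level, with 95.1 and 108 in winter and 97.6 and 98.0 in summer.

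**Figure D3:**
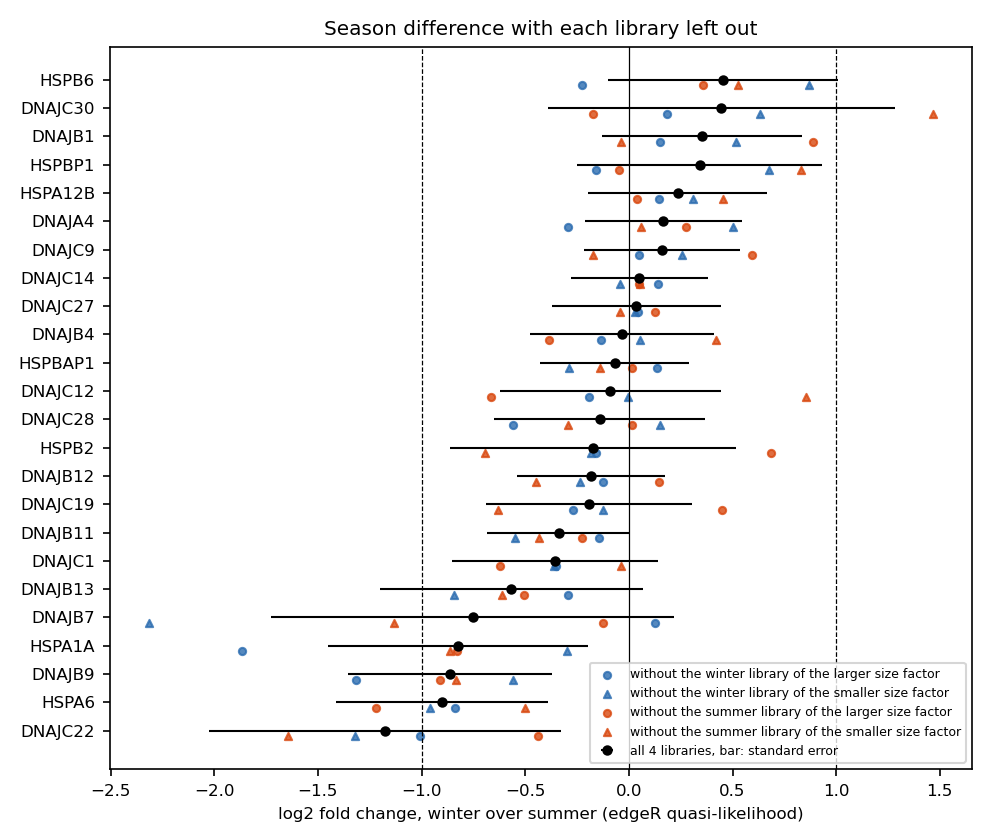
Log2 fold change, winter over summer, of the 24 tested members with all 4 libraries (black, bar of 1 standard error) and with each library left out (blue, a winter library; orange, a summer library; circles, larger and triangles, smaller size factor). Dashed lines mark 2-fold. The sign held in all 4 for 8 members and changed at least once for 16.

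Leaving out 1 library changed the sign of the season difference in 16 of the 24 tested members and kept it in 8. The 8 were HSPA12B and the 7 whose seasons did not overlap, for which the sign cannot change. HSPA12B was the one of them listed higher in winter, with a log2 fold change of 0.24. Without a summer library 1 member passed the 2-fold rule in each case, HSPA6 without the larger size factor (log2 fold change -1.22, unadjusted p = 0.0331) and DNAJC22 without the smaller (-1.65, unadjusted p = 0.0473, both by edgeR's quasi-likelihood test). In these fits a lone summer library is assumed to vary like the winter pair, and 1108 and 1161 of the 7655 symbols then passed the rule.

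A smaller share of the members than of all symbols lay far apart between the summer libraries. Among the 50 members above the minimum with solved summer reads, 7 (14.0%) were more than 2-fold apart between the summer libraries once 1 was added to each value, beside 23.3% of all symbols. Members and all symbols were not matched here for the height of their means. DNAJC30, DNAJC12, HSPB8 and DNAJC5 were higher in the library of the smaller size factor, by 2.31-fold to 3.15-fold. HSPB2, DNAJC22 and DNAJC19 were higher in the library of the larger size factor, by 2.12-fold to 2.62-fold. DNAJC12, a J protein known for binding the hydroxylases that make monoamines, had 32.5 and 93.5 in summer and 62.6 and 55.0 in winter. Its 2 summer values thus lay on either side of winter, and its season means were 63.0 in summer and 58.8 in winter. The neuronal markers SYT1 (36.9 and 116) and RBFOX3 (15.2 and 33.1) were likewise higher in the library of the smaller size factor, and so were the astrocyte marker ALDH1L1 (70.5 and 168) and the ependymal marker RSPH1 (8.68 and 75.2). Over all symbols, 2231 were more than 2-fold higher in that library and 596 in the other. None of the 9 solved members of the endoplasmic reticulum was 2-fold apart. The part of these markers in the differences was not tested.

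**Figure D4:**
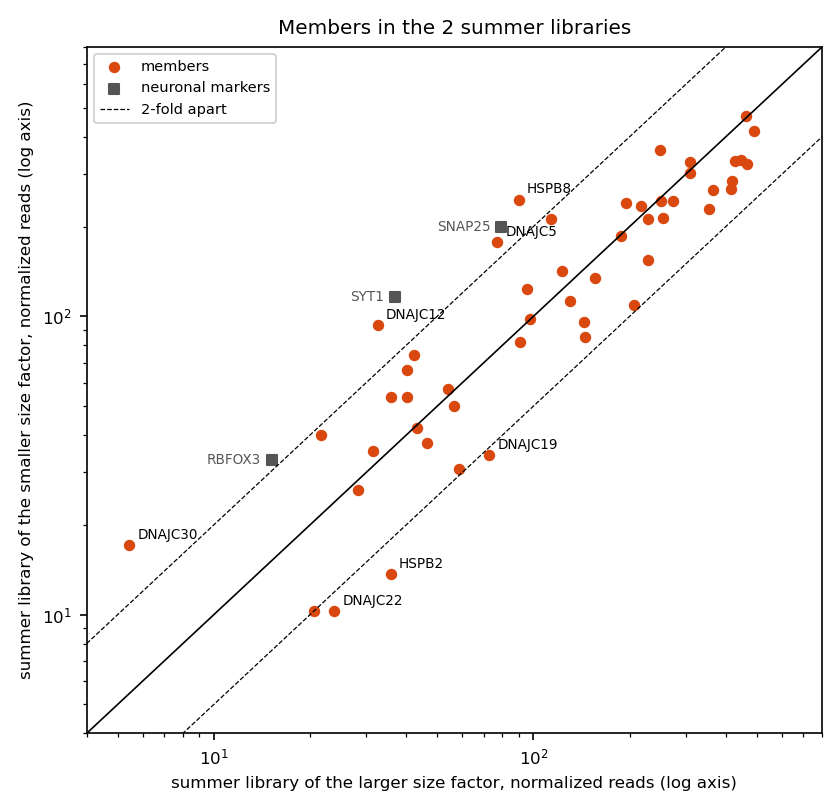
Normalised reads of 50 members (orange) and of 3 neuronal markers (grey squares) in the 2 summer libraries, both axes logarithmic (solid line, equal values; dashed lines, 2-fold apart). All 3 markers and DNAJC30, DNAJC12, HSPB8 and DNAJC5 lie above the upper dashed line.

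Other genes of the chaperone machinery were described by the same measures. Of 76 partner genes in 6 lists, 67 reached a mean of 10, 32 of them listed higher in winter and 35 in summer, with a median log2 ratio of -0.02. Of the 22 tested, 0 had an unadjusted p under 0.05 (edgeR's quasi-likelihood test), beside 1.99% of all symbols. Wholly higher in summer lay 3, beside 17.2% of all symbols, and wholly higher in winter 3, beside 13.3%. The mean of HSF1, the factor that switches on heat shock genes, was 161 in summer and 223 in winter, and that of HSF2 was 256 and 211. FKBP5, an HSP90 co-chaperone induced by glucocorticoids, had 264 in summer and 139 in winter, the side opposite to HSP90AA1. CRYAB, a small heat shock protein whose symbol lacks the prefix and which neighbours HSPB2 in the RefSeq annotation, had 1534 and 1219. Among genes that respond early to stimulation or handling, ATF3 had 77.7 and 10.6 in winter and 56.4 and 190.4 in summer, EGR1 had 64.1 and 28.6 in winter and 18.4 and 11.4 in summer, and the 6 genes of that list summed to 351 in winter and 402 in summer. EGR1 was past the 2-fold rule (log2 fold change 1.65, unadjusted p = 0.0425 and adjusted p = 0.981 by edgeR's quasi-likelihood test). The part of handling in the values of the inducible members was not tested.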

How the data were processed

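RNA-seq of the supraoptic nucleus covered 2 winter and 2 summer libraries, grouped by the season in the labels. Nothing in the labels states that libraries are separate animals, so p-values measure the spread between these samples. The libraries were stranded total RNA depleted of ribosomal RNA. The authors aligned reads with TopHat to their own assembly and deposited raw read counts per gene model from HTSeq (versions not given in the sources used here). These counts carry no symbols and gave only the depth. The deposited season table holds, per symbol, a signal that the authors computed by scaling counts with DESeq size factors and averaging each season, and also edgeR fold changes and p-values, which were not used. Means are given to 6 significant digits. The worth of 1 read in each library was found from the low means, of which 100% in summer came out as whole reads. After small random shifts of these means 0.345% did so. Each mean was then solved for 2 whole numbers within its rounding. Single solutions favour low means.

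The season fit used edgeR 4.0.16 under R 4.3.3 (glmQLFit and glmQLFTest, the recovered size factors, no covariate) on symbols whose winter or summer mean reached 10, with Benjamini-Hochberg adjustment over all 7655. Alternatives were edgeR's exact test and legacy fit, DESeq2 1.42.0, limma-voom (limma 3.58.1), other scalings, filters, fold thresholds and pseudocounts. After the data were seen, each pair of solutions of members with up to 4 a season, and each summer library alone, were added. The scripts were tested on simulated data. Figures were drawn with matplotlib 3.10.9.

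The members, their roles and the lists were chosen with earlier results of these data known. Named were core chaperones and the 5 largest season ratios in each direction. Other named members, partners and markers were chosen after their values were seen. By symbol, 62 of the 68 members were found in the RefSeq annotation mCamDro1.pat, used only for neighbours because its build differs from the authors'. HSPA1A, HSPA1B and HSPA6 may share reads and are uncertain.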

Additional observations from a re-analysis of the deposited data

How the results depend on the processing

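The main limit is 2 libraries a season. Leave-one-out gave 0 to 1 members past the 2-fold rule and 0 past the adjusted threshold. Other scalings, filters, tests and fold thresholds left both counts at 0. Over the whole table, 59 symbols passed the 2-fold rule with DESeq2 and 168 with total counts, against 128. The seasons of 6 to 9 members did not overlap under other scalings and filters, the median log2 ratio ran from -0.07 to -0.04, and 5 to 8 members were more than 1.5-fold apart. The log2 fold change of DNAJB4 (-0.03) was 0.0098 with TMM, 0.022 with RLE, 0.083 with total counts and 0.032 with limma-voom. With 1 library left out it ran from -0.38 to 0.42, that of DNAJB1 from -0.036 to 0.89, DNAJC30 from -0.17 to 1.47, HSPB2 from -0.70 to 0.68 and HSPB6 from -0.22 to 0.87. The cause was not tested. Taken alone, the summer library of the larger size factor placed 100% and that of the smaller size factor 66.7% of the solved endoplasmic reticulum members above the winter mean, chosen after seeing the data. No paired analysis was possible, because the winter and summer camels were different animals, slaughtered in January and in June. A shared replicate number in the labels does not pair them, and the solved libraries carry no number. Members with high means, HSP90AA1, HSPA8 and HSPA1B among them, could not be solved and have no spread.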
